A study of Mus musculus with 6 samples.

Results

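The genes described here encode the mouse factors that start and extend protein synthesis on cytosolic ribosomes. They are the protein-coding genes of the count table whose symbols begin with Eif (eukaryotic initiation factor, 55 genes) or Eef (eukaryotic elongation factor, 14 genes), 69 of 54929 rows in all and of 22046 protein-coding rows. They were taken by name, so they include kinases, inhibitors and methyltransferases of the factors beside the factors themselves. The choice was made with earlier results of these data known.

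RNA was sequenced from left ventricles of wild-type (WT) C57BL/6 mice that had all been through TAC (transverse aortic constriction), in which the aorta is narrowed by surgery and the left ventricle is loaded with pressure. The 3 anti-PD-1 libraries came from mice given an antibody against the T cell receptor PD-1, and the 3 anti-IgG libraries from mice given a control antibody. Both antibodies were injected into the peritoneum at 10 mg/kg, once every 3 days from day 14 after surgery, and each library carries a time label of 5 weeks. The question is how blocking PD-1 alters the pressure-loaded ventricle, and no unoperated heart was analysed here. Separate animals are not stated in the labels, so p-values cover only the spread between these samples, which may be technical.

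In initiation, the factor eIF2 brings the initiator tRNA to the small ribosomal subunit, where eIF1, eIF1A, eIF3 and eIF5 also sit. The eIF4F complex, made of the cap-binding protein eIF4E, the scaffold eIF4G and the helicase eIF4A, brings the mRNA, and the loaded subunit scans it for a start codon. In elongation, eEF1A delivers each aminoacyl-tRNA, the eEF1B complex reloads eEF1A with GTP, and eEF2 moves the ribosome along by a codon at a time. Adult heart and skeletal muscle are known for carrying a muscle form of eEF1A, encoded by Eef1a2, beside the form that nearly all cells make, encoded by Eef1a1.

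Several of the genes come as related pairs, and the start of the coding sequence shows how far the reads of a pair can be told apart. The first 120 coding bases of 3 pairs on which the results turn are given below from GENCODE M21 transcripts (GRCm38), 5′ to 3′, with capitals for the bases that differ within the pair. Eef1a2 lies at chr2:181147653-181157014 on the minus strand and Eef1a1 at chr9:78478449-78489151 on the minus strand, and 18 of the 120 bases differ.
Eef1a2: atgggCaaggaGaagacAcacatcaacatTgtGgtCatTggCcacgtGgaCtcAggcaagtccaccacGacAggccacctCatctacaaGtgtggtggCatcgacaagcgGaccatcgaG
Eef1a1: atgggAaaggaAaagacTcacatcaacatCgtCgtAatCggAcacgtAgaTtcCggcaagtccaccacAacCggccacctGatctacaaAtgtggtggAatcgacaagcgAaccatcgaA

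The gamma subunit of eIF2, which binds GTP and the initiator tRNA, is encoded on both sex chromosomes. Eif2s3x lies at chrX:94188707-94212862 on the minus strand and Eif2s3y at chrY:1010543-1028847 on the plus strand, and 19 of the 120 bases differ.
Eif2s3x: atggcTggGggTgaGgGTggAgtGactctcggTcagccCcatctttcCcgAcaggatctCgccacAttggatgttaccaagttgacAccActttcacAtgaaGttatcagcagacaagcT
Eif2s3y: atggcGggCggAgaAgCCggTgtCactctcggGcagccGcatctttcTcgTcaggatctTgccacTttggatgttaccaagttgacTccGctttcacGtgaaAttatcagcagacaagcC

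Eif1 encodes eIF1, which holds the scanning ribosome in an open state and keeps it from starting at the wrong codon, and Eif1b encodes a close relative. Eif1 lies at chr11:100319885-100322096 and Eif1b at chr9:120492232-120495330, both on the plus strand, and again 19 of the 120 bases differ.
Eif1: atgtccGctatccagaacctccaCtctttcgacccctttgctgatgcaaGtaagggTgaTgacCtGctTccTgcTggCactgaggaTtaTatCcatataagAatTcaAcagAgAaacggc
Eif1b: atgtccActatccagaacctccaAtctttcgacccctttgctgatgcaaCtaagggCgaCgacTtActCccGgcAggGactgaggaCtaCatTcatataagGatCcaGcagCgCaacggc

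Over the whole coding sequence the Eef1a pair was identical at 79.9% of aligned bases, the Eif2s3 pair at 86.3% and the Eif1 pair at 81.1%. The longest run that a pair shared without a difference was 23 bp in the Eef1a pair, 34 bp in the Eif2s3 pair and 25 bp in the Eif1 pair. Eif3j1 and Eif3j2 are a different case. Their coding sequences were 99.2% identical, with a shared run of 1107 bp in the transcripts, so how the authors' counting split their reads is uncertain. Among rows outside the rule, 10 carry Eif or Eef names with another biotype and held 4263 reads over the 6 libraries, of which 4179 stood in the processed pseudogene Eif4a-ps4.

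The libraries held 18063344 to 21093163 counted reads, of which mitochondrially encoded genes took 32.6 ± 3.43% under anti-PD-1 and 33.3 ± 5.24% under anti-IgG (SD, n = 3 libraries in each group, as throughout). The 69 factor genes together took 1.03 ± 0.0440% of the reads under anti-PD-1 and 0.956 ± 0.105% under anti-IgG. Cardiomyocyte markers were high in every library, with a summed level over 10 markers of 21610 to 37582 CPM (reads scaled to library size) under anti-PD-1 and 35978 to 45587 CPM under anti-IgG. Of all tested genes, 10.3% were higher with anti-PD-1 and 10.8% lower. Of the 10 markers, 1 was higher (Ryr2, log2 fold change 1.39), and 3 were lower (Myl2, -1.87, Tnni3, -1.35, and Tnnt2, -1.22). These 4 did not pass with the trend of each library on transcript length removed, where Ryr2 was at 0.62, Myl2 at -1.09, Tnni3 at -0.57 and Tnnt2 at -0.62 (adjusted p = 0.102, 0.0733, 0.194 and 0.178), and the median of the 10 was 0.014 against -0.61 without that step. The part of this difference in the values below was not tested, and in whole tissue fewer cells of a type cannot be told apart from less RNA per cell. Fibroblast markers summed to 1611 to 2722 CPM under anti-PD-1 and 1388 to 2125 CPM under anti-IgG, with 0 of 6 past the threshold. Skeletal muscle markers, of which Myh4 was at 0 in all libraries, summed to 0.0997 to 0.384 CPM under anti-PD-1 and 1.13 to 2.85 CPM under anti-IgG. Sln, an atrial marker, was also at 0.

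Of the 69 genes, 66 had enough reads to be tested, and 15 of them passed the threshold, a Benjamini-Hochberg adjusted p under 0.05 in edgeR's quasi-likelihood test over all genes. That is 22.7% of the 66, against 21.1% of all 14807 tested genes. With anti-PD-1, 5 of the 66 were higher (7.58%, against 10.3% of all genes) and 10 were lower (15.2%, against 10.8%), and 51 did not pass. The genes that rose were Eif2s3x, Eif4g2, Eif4g1, Eif5a2 and Eif4ebp2. The genes that fell were Eif1, Eif1b, Eif2b1, Eif3g, Eif3k, Eif4a3, Eif4ebp1, Eef1b2, Eef1d and Eef1akmt1. The median log2 fold change of the 66 was 0.01, and that of all genes was -0.03. The 3 anti-PD-1 and 3 anti-IgG values were apart in 29 of the 66 (43.9%), against 41.0% of all genes.

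**Figure D1:**
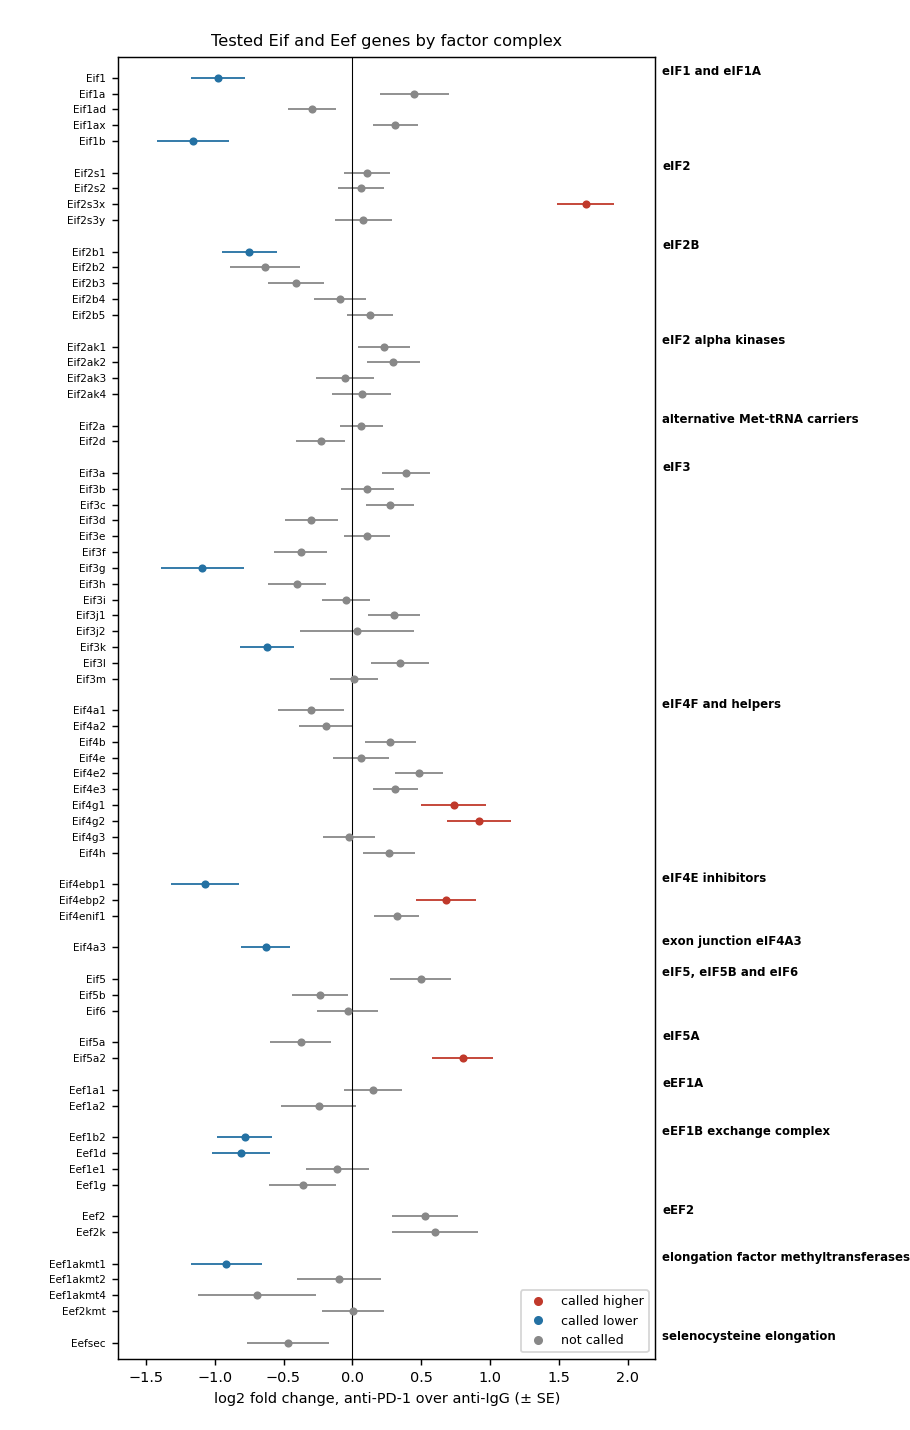
Log2 fold change of each of the 66 tested genes, anti-PD-1 over anti-IgG, with its standard error (SE) as a bar, grouped by factor complex from top to bottom. Red marks the 5 genes called higher and blue the 10 called lower at an edgeR adjusted p under 0.05, and Eif2s3x at 1.69 stands furthest from 0.

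Per gene length, the genes for the elongation factors eEF1A and eEF2 had the highest levels among the 69 genes. Eef1a1 had 1442, 1527 and 1478 CPM in anti-PD-1 libraries 1 to 3, against 1182, 1427 and 1398 CPM in anti-IgG libraries 1 to 3. All 3 anti-PD-1 values lay above the anti-IgG values, but by little, and the test did not pass (log2 fold change 0.15, SE 0.21, adjusted p = 0.637). The muscle form Eef1a2 had 519, 970 and 751 CPM with anti-PD-1, against 734, 788 and 1129 CPM with anti-IgG. These values overlapped widely, with the lowest in an anti-PD-1 library and the highest in an anti-IgG library (log2 fold change -0.24, SE 0.27, adjusted p = 0.550).

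The 2 forms can be set against each other per length with the authors' FPKM (reads scaled to gene length and library size). Eef1a1 averaged 562 ± 10.1 FPKM under anti-PD-1 and 498 ± 46.4 FPKM under anti-IgG, and Eef1a2 averaged 338 ± 97.7 FPKM under anti-PD-1 and 395 ± 96.5 FPKM under anti-IgG. The muscle form was the lower of the pair in all 6 libraries. Its ratio to Eef1a1 was 0.431, 0.760 and 0.608 with anti-PD-1, against 0.743, 0.661 and 0.966 with anti-IgG. The muscle form thus made up 37.0 ± 6.58% of the pair under anti-PD-1 and 43.9 ± 4.80% under anti-IgG, and the ratios overlapped between the groups. The log2 ratio differed by -0.42 (SE 0.29), which did not exceed the spread between libraries (exact 2-sided permutation p = 0.3, where 3 against 3 libraries allow no p under 0.1). Without anti-PD-1 library 1 the difference was -0.20, and without anti-PD-1 library 2 it was -0.61. The authors' gene length was then replaced by the whole exon length of the annotated transcript that was longest by coding and 3' UTR. The ratio of Eef1a2 to Eef1a1 averaged 0.431 under anti-PD-1 and 0.569 under anti-IgG, so the order of the 2 forms was the same.

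**Figure D2:**
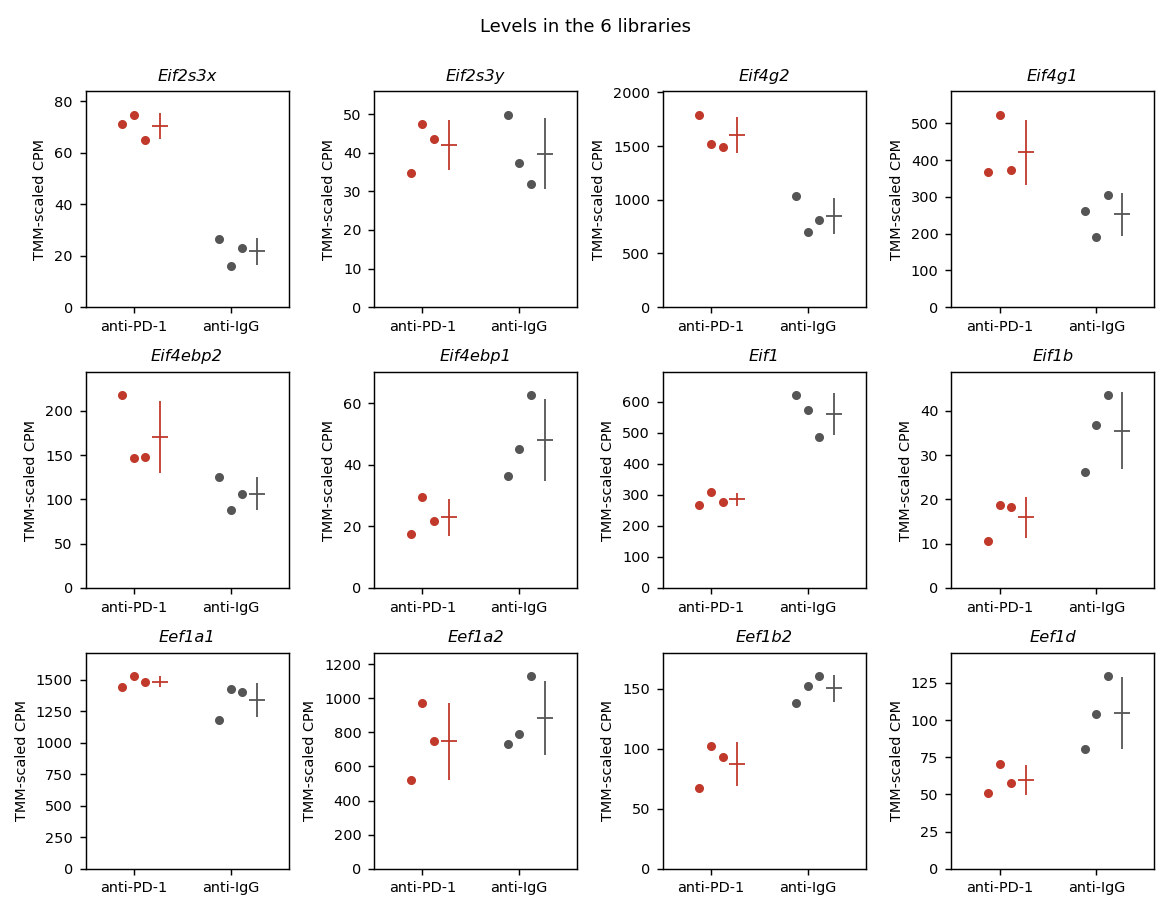
TMM-scaled CPM of 12 genes, with a dot for each library (anti-PD-1 in red on the left, anti-IgG in grey on the right) and the mean with its SD beside the dots, on axes that start at 0. Eif2s3x shows the widest gap between the groups relative to its level, at 64.8 to 74.8 CPM under anti-PD-1 and 16.0 to 26.3 CPM under anti-IgG, while Eef1a2 and Eif2s3y overlap.

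The eEF1B complex exchanges GDP for GTP on eEF1A. Of the 4 genes grouped with it here by name, 2 were lower with anti-PD-1 (10.8% of all genes were lower) and 0 higher. Their median log2 fold change was -0.57 (all genes -0.03). These values, and the medians given for eEF1B further on, count Eef1e1, which is not a subunit of the complex. Eef1b2, the alpha subunit that carries out the exchange, had 67.0, 102 and 93.2 CPM with anti-PD-1, against 138, 153 and 161 CPM with anti-IgG. The groups were apart, with anti-PD-1 library 1 lowest (log2 fold change -0.78, SE 0.20, adjusted p = 0.0218). Eef1d, the delta subunit and a further exchange factor, had 51.1, 70.7 and 57.9 CPM with anti-PD-1, against 80.7, 104 and 130 CPM with anti-IgG. Here too the groups did not overlap (log2 fold change -0.81, SE 0.21, adjusted p = 0.0247). Eef1g, the gamma subunit that anchors the complex, had 121 to 190 CPM under anti-PD-1 and 175 to 276 CPM under anti-IgG, and these values overlapped (log2 fold change -0.36, adjusted p = 0.307). Eef1e1, which is named with this family but encodes a subunit of the tRNA synthetase complex, was at -0.11 (adjusted p = 0.761). Eef1b2 overlaps Ndufs1 on the opposite strand, which held 39148 reads over the 6 libraries against its own 13818. Eef1d overlaps Naprt on its own strand, with 1153 reads against 9576. Whether counting used strand is not stated, so reads of such neighbours cannot be told apart with certainty. The same limit holds for Eef1akmt4, Eif2b4, Eif4enif1, Eif2a and Eef2kmt. Each overlaps an opposite-strand neighbour with more reads than its own, from 102% for Eef2kmt to 463% for Eef1akmt4.

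Eef2 encodes the translocase of elongation. It had 1521, 1786 and 1372 CPM with anti-PD-1, against 1118, 830 and 1303 CPM with anti-IgG. Every anti-PD-1 value was above every anti-IgG value, and the difference did not pass over all genes (log2 fold change 0.53, SE 0.24, adjusted p = 0.137). Per length Eef2 averaged 443 ± 52.2 FPKM with anti-PD-1, next below Eef1a1 in that group, and 304 ± 68.8 FPKM with anti-IgG, where it stood below Eef1a2. The libraries of Eef2 and Eef1a2 overlapped in both groups: with anti-PD-1 Eef2 ranged from 395 to 499 FPKM and Eef1a2 from 237 to 432, and with anti-IgG Eef2 ranged from 230 to 366 and Eef1a2 from 331 to 506. Eef2k, the kinase that inactivates eEF2, had 22.8, 39.8 and 18.2 CPM with anti-PD-1, against 23.2, 12.5 and 17.6 CPM with anti-IgG. The values overlapped, and 1 anti-PD-1 library stood well above the rest (log2 fold change 0.60, SE 0.31, adjusted p = 0.186).

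Enzymes that methylate lysines of the elongation factors were low. Eef1akmt1 had 6.68, 11.3 and 8.74 CPM with anti-PD-1, against 15.7, 13.1 and 21.5 CPM with anti-IgG, and it fell (log2 fold change -0.91, SE 0.26, adjusted p = 0.0320). The groups did not overlap, though anti-PD-1 library 2 and anti-IgG library 2 came close. Eef1akmt2, Eef1akmt4 and Eef2kmt did not pass, at log2 fold changes of -0.09, -0.69 and 0.00. Eef1akmt3 was not tested and held 3, 4 and 3 reads with anti-PD-1, against 0, 0 and 10 reads with anti-IgG. Eefsec, which delivers the selenocysteine tRNA, had 3.04, 3.43 and 5.14 CPM with anti-PD-1, against 4.81, 5.15 and 6.11 CPM with anti-IgG, and did not pass (log2 fold change -0.47, adjusted p = 0.276).

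The largest log2 fold change among the 66 tested genes was in eIF2, and in only 1 of its 4 tested genes. Eif2s3x had 71.2, 74.8 and 64.8 CPM with anti-PD-1, against 26.3, 16.0 and 22.8 CPM with anti-IgG. The lowest anti-PD-1 library was above the highest anti-IgG library by more than the whole range of either group (log2 fold change 1.69, SE 0.21, adjusted p = 0.00224). Its Y-linked partner Eif2s3y had 34.8, 47.5 and 43.6 CPM with anti-PD-1, against 49.9, 37.4 and 31.9 CPM with anti-IgG. Those values overlapped fully, with the highest in an anti-IgG library (log2 fold change 0.08, SE 0.21, adjusted p = 0.813). The alpha subunit gene Eif2s1, whose product is the target of the stress kinases, was at 0.11, and the beta subunit gene Eif2s2 at 0.07 (adjusted p = 0.675 and 0.810).

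The ratio of the X-linked to the Y-linked gene differed between the groups without overlap. In FPKM it was 2.23, 1.72 and 1.62 with anti-PD-1, against 0.576, 0.467 and 0.780 with anti-IgG. The X-linked gene made up 64.7 ± 3.81% of the pair under anti-PD-1 and 37.4 ± 6.04% under anti-IgG. The log2 ratio differed by 1.63 (SE 0.26; exact 2-sided permutation p = 0.1, the smallest possible, and 0.3 after Benjamini-Hochberg adjustment over 9 pairs compared). Which of the 2 genes was the higher depends on the length used. With whole annotated transcript lengths the ratio averaged 0.857 under anti-PD-1 and 0.280 under anti-IgG. The rise of Eif2s3x was past the threshold under each of 18 alternative settings, among them each library left out in turn, other scalings, DESeq2 and the deposited FPKM. Its log2 fold change lay between 1.49 and 1.86 there, with the highest adjusted p at 0.0400. With the trend of each library on transcript length removed, Eif2s3x was at 1.49 (edgeR adjusted p = 0.00485) and Eif2s3y at 0.42 (adjusted p = 0.263). The ratio of the pair given above was not corrected for this trend.

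**Figure D3:**
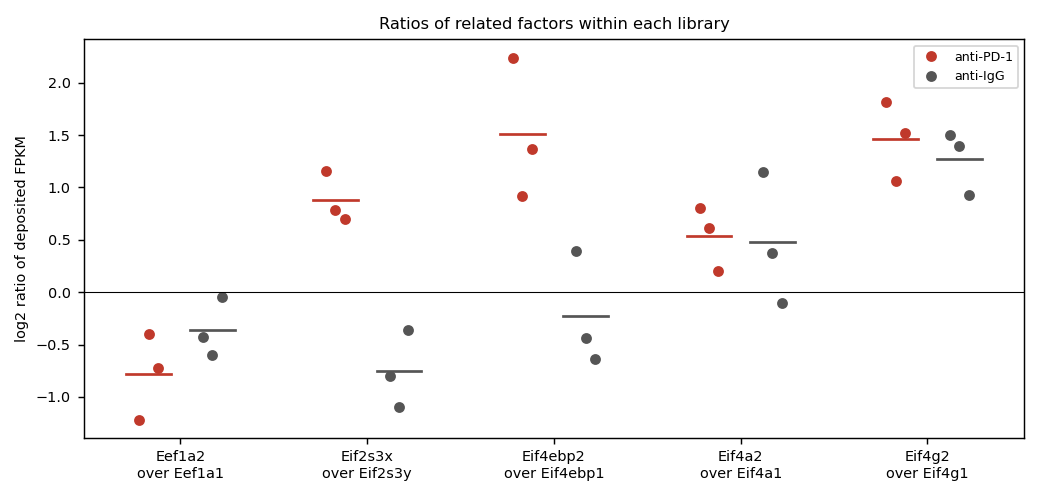
Log2 ratio of the deposited FPKM within each library for 5 gene pairs, with a dot for each library (anti-PD-1 in red on the left, anti-IgG in grey on the right) and a line at the group mean. The groups are apart for Eif2s3x over Eif2s3y and for Eif4ebp2 over Eif4ebp1, and overlap for Eef1a2 over Eef1a1, Eif4a2 over Eif4a1 and Eif4g2 over Eif4g1.

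eIF2B reloads eIF2 with GTP and is made of 5 subunits, Eif2b1 to Eif2b5. Eif2b1, the alpha subunit, had 12.4, 16.7 and 15.7 CPM with anti-PD-1, against 21.1, 26.8 and 27.2 CPM with anti-IgG. It fell, with no overlap between the groups (log2 fold change -0.75, SE 0.20, adjusted p = 0.0251). The other 4 subunits did not pass, at log2 fold changes of -0.63, -0.41, -0.09 and 0.13 from Eif2b2 to Eif2b5, and the median of the complex was -0.41.

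The 4 kinases that phosphorylate eIF2 alpha under stress sense different conditions. They were Eif2ak1 (HRI, haem), Eif2ak2 (PKR, double-stranded RNA), Eif2ak3 (PERK, unfolded proteins in the endoplasmic reticulum) and Eif2ak4 (GCN2, amino acids). With anti-PD-1, 0 of the 4 passed, at log2 fold changes of -0.06 to 0.30, and 0 reached an unadjusted p under 0.05. Eif2ak2 had the smallest p, with 21.1, 21.4 and 22.8 CPM with anti-PD-1, against 17.5, 20.98 and 14.8 CPM with anti-IgG. The groups did not overlap but nearly touched (adjusted p = 0.282). Eif2a and Eif2d, whose products can place the initiator or other tRNAs without eIF2, were at 0.07 and -0.23, and the values of Eif2d overlapped, at 22.0 to 26.3 CPM under anti-PD-1 and 24.3 to 30.3 CPM under anti-IgG (adjusted p = 0.376).

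Both genes for eIF1 fell with anti-PD-1, but neither passed with the trend of each library on transcript length removed. Eif1 was then at -0.29 and Eif1b at -0.26 (edgeR adjusted p = 0.437 and 0.415). Eif1 had 268, 309 and 278 CPM with anti-PD-1, against 620, 572 and 487 CPM with anti-IgG. The groups were far apart (log2 fold change -0.97, SE 0.20, adjusted p = 0.0103). Eif1b, of which the ventricle held far less, had 10.6, 18.8 and 18.3 CPM with anti-PD-1, against 26.2, 36.8 and 43.5 CPM with anti-IgG, again with no overlap (log2 fold change -1.16, SE 0.26, adjusted p = 0.0144). Per length, Eif1 made up 90.7 ± 2.16% of the pair under anti-PD-1 and 89.2 ± 3.47% under anti-IgG, a difference within the spread between libraries (exact 2-sided permutation p = 0.6). The eIF1A genes, which encode the partner of eIF1 on the scanning ribosome, had log2 fold changes above 0 that did not pass. Eif1ax was at 0.31 (adjusted p = 0.188) with 74.7 to 76.6 CPM under anti-PD-1 and 54.9 to 66.7 CPM under anti-IgG, and Eif1a at 0.45 (adjusted p = 0.217). Eif1ad was at -0.29 (adjusted p = 0.239).

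eIF3 is the large scaffold on the small ribosomal subunit. Of its 14 genes, 0 rose and 2 fell with anti-PD-1, where 10.8% of all genes fell, and the median log2 fold change was 0.02 (-0.07 under upper quartile scaling). Eif3g, an RNA-binding subunit that acts in scanning, had 13.0, 23.1 and 20.1 CPM with anti-PD-1, against 24.2, 41.1 and 54.4 CPM with anti-IgG. The highest anti-PD-1 value lay just under the lowest anti-IgG value (log2 fold change -1.09, SE 0.30, adjusted p = 0.0319). Eif3k, the smallest of the tested eIF3 genes by coding and 3' UTR length at 777 bp, had 40.6, 58.6 and 54.3 CPM with anti-PD-1, against 65.6, 87.3 and 83.0 CPM with anti-IgG (log2 fold change -0.62, SE 0.20, adjusted p = 0.0463). These groups did not overlap either. The remaining 12 ranged from -0.40 for Eif3h to 0.39 for Eif3a, the largest subunit, which had 195 to 220 CPM under anti-PD-1 and 150 to 165 CPM under anti-IgG without overlap (adjusted p = 0.126). Although the subunits join in a single complex, their levels per length were spread widely: apart from Eif3j2, at 0.669 FPKM under anti-PD-1 and 0.645 FPKM under anti-IgG, they ran from 5.45 FPKM for Eif3d to 82.1 FPKM for Eif3h with anti-PD-1, and from 6.59 to 107 FPKM for the same genes with anti-IgG. Of the near-identical pair, Eif3j1 was at 0.30 and Eif3j2 at 0.03, and neither passed.

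Of 10 tested genes for eIF4F and its helpers, 2 rose and 0 fell with anti-PD-1, where 10.3% of all genes rose, with a median log2 fold change of 0.27 (all genes -0.03). Both that rose encode eIF4G proteins. The genes were grouped by name. These values, and the medians given for eIF4F further on, count Eif4g2 and Eif4e2, whose products are not parts of eIF4F. Eif4g2 encodes DAP5, a shortened relative that lacks the eIF4E binding site and serves cap-independent initiation, and it is known for starting at a GTG codon. Its first 30 coding bases in GENCODE M21 (GRCm38, chr7:111067750-111083030, minus strand) are given with that codon in capitals.
Eif4g2: GTGgagagtgcgattgcagaagggggtgct

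Eif4g2 was the most abundant initiation factor gene by reads, with 1793, 1521 and 1494 CPM with anti-PD-1, against 1035, 701 and 808 CPM with anti-IgG. The groups were well apart (log2 fold change 0.92, SE 0.23, adjusted p = 0.0206). The full-length scaffold gene Eif4g1 had 367, 524 and 375 CPM with anti-PD-1, against 262, 191 and 306 CPM with anti-IgG. It also rose without overlap, but close to the threshold (log2 fold change 0.74, SE 0.24, adjusted p = 0.0473). The related scaffold gene Eif4g3 had 62.0 to 83.6 CPM under anti-PD-1 and 65.8 to 82.5 CPM under anti-IgG and did not pass (log2 fold change -0.03, adjusted p = 0.934). The log2 ratio of Eif4g3 to Eif4g1 differed by -0.78 (SE 0.39), with overlapping values (exact 2-sided permutation p = 0.2).

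The other tested genes grouped with eIF4F did not pass. The cap-binding gene Eif4e had 169, 178 and 140 CPM with anti-PD-1, against 193, 140 and 134 CPM with anti-IgG (log2 fold change 0.06, adjusted p = 0.854). The helicase genes Eif4a1 and Eif4a2 were at -0.30 and -0.19 (adjusted p = 0.380 and 0.494). The ratio of Eif4a2 to Eif4a1 in FPKM was 1.75, 1.53 and 1.15 with anti-PD-1, against 2.21, 1.30 and 0.933 with anti-IgG, so Eif4a2 was the higher in all libraries but anti-IgG library 3. The groups overlapped (log2 ratio difference 0.07, SE 0.40; exact 2-sided permutation p = 1). With whole annotated transcript lengths the ratio averaged 1.19 under anti-PD-1 and 1.20 under anti-IgG. It was below 1 in anti-PD-1 library 3 (0.928) and anti-IgG library 3 (0.752). The helicase cofactor genes Eif4b and Eif4h were at 0.28 and 0.26. Eif4e2, whose product binds caps without building eIF4F and represses its mRNAs, had 47.8 to 49.4 CPM under anti-PD-1 and 28.6 to 38.2 CPM under anti-IgG. Its groups were apart, and the test missed the threshold (log2 fold change 0.48, adjusted p = 0.0675). Eif4e3 was at 0.31 (adjusted p = 0.188), and the egg cell form Eif4e1b had 0 reads in every library.

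The inhibitors that hold eIF4E away from eIF4G moved in opposite directions. Eif4ebp1 had 17.5, 29.5 and 21.8 CPM with anti-PD-1, against 36.3, 45.2 and 62.6 CPM with anti-IgG, and it fell without overlap (log2 fold change -1.07, SE 0.25, adjusted p = 0.0158). Eif4ebp2 had 218, 147 and 147 CPM with anti-PD-1, against 125, 88.0 and 106 CPM with anti-IgG, and it rose without overlap (log2 fold change 0.68, SE 0.22, adjusted p = 0.0478). With the trend of each library on transcript length removed, neither gene passed. Eif4ebp1 was then at -0.62 and Eif4ebp2 at 0.77 (edgeR adjusted p = 0.104 and 0.0566). Eif4ebp2 held most of the reads of the pair in both groups. Per length its ratio to Eif4ebp1 was 4.72, 1.89 and 2.57 with anti-PD-1, against 1.31, 0.740 and 0.643 with anti-IgG. The log2 ratio differed by 1.73 (SE 0.50; exact 2-sided permutation p = 0.1, the smallest possible, 0.3 adjusted over the 9 pairs), in a pair that was chosen after its values were seen. Eif4ebp3 was not tested, with 0 reads in each anti-PD-1 library, against 6, 5 and 3 reads with anti-IgG. Eif4enif1, which carries eIF4E into the nucleus, had 39.9 to 48.0 CPM under anti-PD-1 and 33.2 to 35.1 CPM under anti-IgG and did not pass (log2 fold change 0.32, adjusted p = 0.177).

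Eif4a3 carries an eIF4A name but encodes the helicase of the exon junction complex, which marks spliced mRNAs. It had 27.0, 28.9 and 35.9 CPM with anti-PD-1, against 43.3, 47.7 and 51.0 CPM with anti-IgG, and fell (log2 fold change -0.63, SE 0.18, adjusted p = 0.0313). The groups did not overlap.

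eIF5 triggers GTP hydrolysis on eIF2, eIF5B joins the ribosomal subunits and eIF6 keeps free large subunits apart. None of the 3 genes passed over all 6 libraries. Eif5 had 237, 216 and 261 CPM with anti-PD-1, against 222, 137 and 146 CPM with anti-IgG, where anti-IgG library 1 lay within the anti-PD-1 range (log2 fold change 0.50, SE 0.22, adjusted p = 0.126). Without anti-IgG library 1 its edgeR adjusted p was 0.0236, in a fit where 24.1% of all genes passed. That fit leaves out the library that overlapped, so it adds nothing to the test over all 6. Eif5b was at -0.24 and Eif6 at -0.03.

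eIF5A relieves ribosomes that stall on difficult peptide bonds and carries the modified residue hypusine. Eif5a2, the minor form, had 12.8, 9.65 and 9.80 CPM with anti-PD-1, against 6.51, 6.10 and 5.91 CPM with anti-IgG. The anti-IgG values lay close together and below all anti-PD-1 values (log2 fold change 0.80, SE 0.22, adjusted p = 0.0302). The main form Eif5a had 160, 185 and 203 CPM with anti-PD-1, against 188, 216 and 308 CPM with anti-IgG, with overlap (log2 fold change -0.38, adjusted p = 0.239). Per length Eif5a2 made up 2.76 ± 0.769% of the pair under anti-PD-1 and 1.28 ± 0.358% under anti-IgG. The log2 ratio differed by 1.14 (SE 0.34, exact 2-sided permutation p = 0.1, 0.3 adjusted over the 9 pairs), with no overlap. This ratio was not corrected for the trend on transcript length. With that trend removed, Eif5a2 was at 0.84 and Eif5a turned to 0.29 (edgeR adjusted p = 0.0460 and 0.358).

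Translation factors named otherwise were read from a list of 23 genes for termination, recycling, poly(A)-binding proteins and modification of the factors. All 23 were tested, and 4 rose, 2 fell and 17 did not pass, where 10.3% of all genes were higher and 10.8% lower. The median log2 fold change was -0.13, and it turned to 0.18 with the trend on transcript length removed. Those that rose include both subunits of the release factor: Etf1, which reads the stop codon, had 215, 197 and 175 CPM with anti-PD-1, against 127, 92.5 and 106 CPM with anti-IgG (log2 fold change 0.85, adjusted p = 0.0144). Its GTPase partner Gspt1 had 90.9, 96.2 and 100.6 CPM with anti-PD-1, against 64.8, 40.9 and 46.1 CPM with anti-IgG (log2 fold change 0.92, adjusted p = 0.0127). Both were apart between the groups. The recycling factor Abce1 rose by 0.60 and Paip2b, an inhibitor of the poly(A)-binding protein, by 0.67 on the log2 scale. The genes that fell were Denr (-0.75), which acts with MCT-1 in recycling and reinitiation, and Mcts2 (-0.93). Mcts2 is a retrogene copy of the gene for that partner, so that reads of the 2 copies may have been split. With the transcript length trend removed, Mcts2 was at -0.047 and Denr at -0.50 (edgeR adjusted p = 0.929 and 0.128). Etf1 (0.65) and Abce1 (0.39) did not pass there either (adjusted p = 0.0543 and 0.176), while Gspt1 and Paip2b did.

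The signalling genes around eIF4E and S6 kinase were read from a list of 22. All were tested, and 9 rose, 2 fell and 11 did not pass, where 10.3% of all genes were higher and 10.8% lower. The median log2 fold change was 0.14, and 0.02 with the trend on transcript length removed, where none of the 9 passed (the fit is described further on). Mtor, the kinase that phosphorylates the 4E-BP inhibitors, had 91.1, 103 and 69.3 CPM with anti-PD-1, against 45.8, 53.9 and 55.2 CPM with anti-IgG (log2 fold change 0.76, adjusted p = 0.0210). Its partner Rptor rose by 0.67, and so did its inhibitors Tsc1 (1.00), Tsc2 (0.84) and Deptor (0.77). Of the same complex and its regulators, Mlst8 was at 0.01, the activator Rheb at -0.23 and the inhibitor Akt1s1 at -0.53, and none of these passed. Larp1, which binds mRNAs with a terminal oligopyrimidine tract, rose by 0.63, Larp4 by 0.88, Gigyf2, the partner of the Eif4e2 product, by 0.50 and Cyfip1, an eIF4E-binding repressor, by 0.63. Tpt1, an abundant mRNA with such a tract, fell, with 1112 ± 96.3 CPM under anti-PD-1 and 1944 ± 217 CPM under anti-IgG (log2 fold change -0.81, adjusted p = 0.0263). Rps6kb2, a kinase of ribosomal protein S6, fell too (-0.97, adjusted p = 0.0405), while Rps6kb1 was at -0.08. With the transcript length trend removed, Mtor was at 0.33 (adjusted p = 0.300), Larp1 at 0.00048, Gigyf2 at 0.037, Cyfip1 at 0.041 and Tpt1 at -0.0027 on the log2 scale, while Rps6kb2 passed (-1.29).

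Which factor genes rose or fell ran along with their length. The 5 that rose had gene lengths in the authors' table of 3812 to 10166 bp (median 5784 bp), and the 10 that fell of 947 to 6488 bp (median 2159 bp). Among the 33 shorter of the 66 tested genes, 0 rose and 9 fell, and the median log2 fold change was -0.29. The 33 longer held 5 that rose and 1 that fell, and their median was 0.11. Across the 66 genes, which share the same 6 libraries and are not independent, the log2 fold change had a Spearman correlation of 0.65 with coding and 3' UTR length. In 13083 genes with both lengths it was 0.63, so the relation in the factor genes was close to that of the transcriptome.

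**Figure D4:**
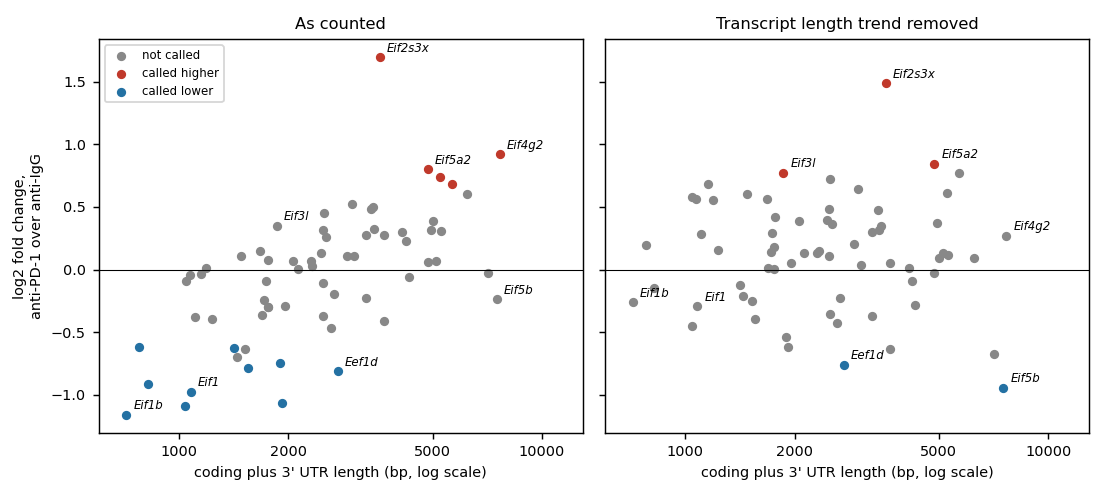
Log2 fold change, anti-PD-1 over anti-IgG, of the 66 tested genes against coding plus 3' UTR length on a log axis. Values are as counted (left) and with the trends on coding length and on 3' UTR length removed in each library (right). Red and blue mark genes called higher and lower in each fit. The removal itself takes out the slope seen on the left. On the right Eif2s3x, Eif5a2 and Eif3l are called higher and Eef1d and Eif5b lower.

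The trend of every library on transcript length, with coding length and 3' UTR length as separate terms, was then removed before the test. The Spearman correlation with coding plus 3' UTR length in the 66 genes was -0.01, and the medians of the shorter and longer 33 were 0.14 and 0.13. Loss of the relation follows from the removal, which was fitted over all genes with these lengths, and is not a result. In this fit 5 of the 66 passed, against 5.67% of all genes. Eif2s3x (log2 fold change 1.49, adjusted p = 0.00485) and Eif5a2 (0.84, adjusted p = 0.0460) were higher and Eef1d was lower (-0.76, adjusted p = 0.0443), as they were without the correction. Eif3l was higher (0.77, adjusted p = 0.0405) and Eif5b lower (-0.94, adjusted p = 0.0312) with the correction alone. Eif4g2 was at 0.27 and Eif1 at -0.29 there (adjusted p = 0.448 and 0.437) and did not pass. Eif2b1 was at -0.54, Eif3g at -0.45, Eef1b2 at -0.40, Eef1akmt1 at -0.15 and Eif4a3 at -0.13. None of these passed (adjusted p = 0.0949, 0.242, 0.187, 0.735 and 0.666). Eif4g1 was at 0.61 and did not pass either (adjusted p = 0.125). With the trend on gene length as the authors give it removed instead, 3 of the 66 passed, against 10.3% of all genes: Eif2s3x (1.74) and Eif4e3 (0.61) were higher and Eef1d (-0.99) was lower. Of the other lists, Gspt1 (0.75), Paip2b (0.81) and Rps6kb2 (-1.29) passed with the transcript length trend removed, with adjusted p from 0.0307 to 0.0456.

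Fewer of the 15 genes passed when a library was left out, while their fold changes stayed near those over all 6 libraries. Without anti-PD-1 library 1, 2 of the tested factor genes passed, against 6.36% of all genes, and without anti-IgG library 2 there were also 2, against 3.52%. Without anti-IgG library 3 there were 3 (10.3% of all genes), without anti-PD-1 library 3 there were 5 (11.6%), without anti-PD-1 library 2 there were 13 (16.3%) and without anti-IgG library 1 there were 15 (24.1%). Eif2s3x and Eif1 passed without any 1 of the 6 libraries, Eif1 with log2 fold changes of -1.06 to -0.89 and an adjusted p of at most 0.0450. Eif1b did not pass without anti-PD-1 library 1 or anti-IgG library 2 (highest adjusted p = 0.0620). Eif4g2 did not pass without anti-PD-1 library 1 or anti-IgG library 2 or 3 (0.0682 to 0.0961), nor Eif4a3 without anti-PD-1 library 1 or 2 or anti-IgG library 2 or 3 (0.0810 to 0.127). Eif2b1, Eif3g, Eif4ebp1, Eif4ebp2, Eif5a2, Eef1b2, Eef1d and Eef1akmt1 each did not pass without anti-PD-1 library 1 or 3 or anti-IgG library 2 or 3, with a highest adjusted p between 0.0671 for Eif4ebp1 and 0.202 for Eif4ebp2. Eif3k passed only without anti-IgG library 1 among these 6 settings (highest adjusted p = 0.183), and Eif4g1 in 0 of them (0.0550 to 0.182). Over these fits the log2 fold change ran from -0.86 to -0.62 for Eif2b1, from -1.35 to -0.80 for Eif3g, from -0.73 to -0.47 for Eif3k, from -0.75 to -0.54 for Eif4a3 and from -1.27 to -0.83 for Eif4ebp1. It ran from -0.89 to -0.61 for Eef1b2, from -0.96 to -0.62 for Eef1d, from -1.10 to -0.70 for Eef1akmt1 and from -1.33 to -0.93 for Eif1b. For the genes that rose it ran from 0.55 to 0.89 for Eif4g1, from 0.78 to 1.09 for Eif4g2, from 0.47 to 0.82 for Eif4ebp2 and from 0.66 to 0.89 for Eif5a2. The sign was the same in all of these fits for each of the 15 genes.

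Other settings called 3 to 16 of the factor genes. RLE scaling called 15 (21.3% of all genes), DESeq2 15 (23.8%), a stricter count filter 15 (22.7%), no filter 16 (14.4%), upper quartile scaling 13 (21.6%) and the table without mitochondrial and haemoglobin genes 14 (21.3%). The deposited FPKM gave 13 with low values filtered out (25.1% of all genes), and 3 without that filter at a pseudocount of either 1 (1.90%) or 0.1 (3.72%).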

How the data were processed

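Per the submitters' processing notes, reads were counted with featureCounts on mm10, without versions; neither the aligner nor the use of strand is given in the sources used here. The authors deposited whole-number counts per gene and FPKM with a gene length in bp. The deposited FPKM equal count over gene length and a constant per library of 0.953 to 1.15 times the summed counts, so a further scaling step was applied, which the labels do not describe. Libraries were grouped by their labels.

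Counts were tested with edgeR 4.0.16 (R 4.3.3; filterByExpr, TMM scaling, glmQLFit with robust=TRUE, quasi-likelihood F test, 2-sided) over all 14807 genes kept, with Benjamini-Hochberg adjustment. CPM are TMM-scaled, and an SE was taken as the log2 fold change over the square root of F. The fit was tested on simulated data. Ratios of pairs were compared by exact permutation over libraries. The length trends were natural splines with 5 degrees of freedom per length, fitted to log2 CPM (prior count 2) and entered as offsets. The transcript length trend used GENCODE M21 coding and 3' UTR lengths as separate terms, and the gene length trend used the authors' own lengths.

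Named were Eef1a1 and Eef1a2, all members past the threshold or else the smallest p of each complex, related pairs, untested members by reads, and list genes past the threshold. Others are given to complete their complex. The members, complexes and lists were chosen with earlier results of these data known. Alternatives were RLE and upper quartile scaling, other count filters, DESeq2 1.42.0, limma-trend (limma 3.58.1) on FPKM, the replicate number as a block, mitochondrial and haemoglobin genes left out, the length trends and each library left out. Other marker lists (lymphocyte, 2 of 4 tested genes lower; macrophage, 1 higher and 1 lower of 6; endothelial, 1 of 6 higher; pericyte and smooth muscle, 1 of 6 lower; erythroid and neuronal, 0 of 4 each; atrial, 0 of 2) were read in the same fit. In that fit 10.3% of all genes were higher and 10.8% lower.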

Additional observations from a re-analysis of the deposited data

How the results depend on the processing

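The 5 factor genes called higher with anti-PD-1 became 3 under upper quartile scaling, 1 by limma-trend on log2(FPKM + 1) or on log2(FPKM + 0.1), 2 with the gene length trend removed and 3 with the transcript length trend removed, and 1 to 5 with a library left out. The 10 called lower became 2 by limma-trend on log2(FPKM + 1) or on log2(FPKM + 0.1), 1 with the gene length trend removed and 2 with the transcript length trend removed, and 1 to 10 with a library left out. Those FPKM fits without a filter called 1.90% and 3.72% of all genes, and with low FPKM filtered out 25.1%, where 4 factor genes were higher and 9 lower. RLE scaling, other count filters, DESeq2 and leaving out mitochondrial and haemoglobin genes gave 5 or 6 higher and 9 or 10 lower.

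The replicate numbers were not taken to pair the libraries: same-numbered libraries deviated together with correlations of 0.12, -0.14 and 0.21. With the replicate block 4 were higher and 11 lower, and the Eef1a2 to Eef1a1 difference of -0.42 had an exact p of 0.5.

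Of 306 medians of log2 fold change by complex and setting, 41 moved by more than the spread between libraries. With the gene length trend removed the medians were 0.017 for eIF1 and eIF1A, -0.17 for eIF2B, -0.033 for the eIF2 alpha kinases, -0.28 for Eif2a and Eif2d, 0.16 for eIF3, 0.15 for the eIF4E inhibitors, -0.23 for Eif4a3, 0.21 for eIF5, eIF5B and eIF6, 0.35 for eIF5A, 0.31 for eEF1A, -0.29 for eEF1B, 0.070 for the methyltransferases and 0.072 for all members. With the transcript length trend removed they were 0.051 for eIF1 and eIF1A, 0.28 for eIF2, -0.041 for the kinases, 0.0093 for Eif2a and Eif2d, 0.19 for eIF3, 0.16 for eIF4F, -0.13 for Eif4a3, 0.32 for eIF5, eIF5B and eIF6, 0.56 for eIF5A, 0.35 for eEF1A, -0.19 for eEF1B, -0.0070 for the methyltransferases and 0.13 for all members; Eif3k turned to 0.20 there (adjusted p = 0.467). Under upper quartile scaling, which put the median of all genes at -0.12, they were 0.055 for the kinases, -0.18 for Eif2a and Eif2d, 0.18 for eIF4F, 0.23 for the eIF4E inhibitors and -0.084 for all members. By limma-trend on log2(FPKM + 1), with and without the filter, eIF5A was at 0.084, and with the filter the methyltransferases at -0.057. With a library left out the medians ranged from 0.037 to 0.24 for eIF2, 0.081 to 0.19 for the kinases, 0.20 to 0.37 for eIF4F, 0.25 to 0.38 for the eIF4E inhibitors and -0.56 to -0.10 for the methyltransferases. In both length fits the median for eIF1 and eIF1A was the value of Eif1ad, which is grouped there by name. With the gene length trend removed, Eif1 was at -0.57, Eif1b at -0.49, Eif1a at 0.66 and Eif1ax at 0.23. Why the medians moved was not tested. Depth limits Eif4ebp3 and Eef1akmt3, where a difference was not detectable. Eif3j2 also held few reads, and how reads were split between it and Eif3j1 is uncertain. A difference was not detectable there either.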
